A study of Homo sapiens with 6 samples.

Results

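The exons described here lie between 1 short and 1 long intron. They were taken from the skipped exon table as exons longer than 60 and shorter than 300 nt with an intron of at most 300 nt on 1 side and an intron above 2000 nt on the other, with the strand used to tell the 5′ from the 3′ side. Each needed a mean of at least 20 junction reads per library and at least 5 reads of the inclusion and of the skipping form in all, and an exon listed in several events was taken once, with the event of most reads. This gave 2437 of the 43287 exons that could be tested, in 1493 genes. The short intron was on the 5′ side of 1219 exons and on the 3′ side of 1218, and had a median length of 161 nt on the 5′ side and 147 nt on the 3′ side. The longest of the long introns had 99241 nt.

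The study asked what SFSWAP, a nuclear SR-like splicing regulator, does to splicing, and sequenced polyadenylated RNA after its knockdown. HEK293A-TOA cells, a single human embryonic kidney line, received no inhibitor and were transfected with a non-target siRNA (siNT) or with 40 nM of 2 mixed siRNAs that target SFSWAP (siSFSWAP). RNA was isolated from 3 biological replicates of each group 5 days after transfection. In the legend of its protein blot the study calls its siRNA #1 not effective. Within a group the libraries carry no number in the deposited lists and are lettered a, b and c by their place in them, and values are given in that order throughout.

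An internal exon can be recognised by contacts between splicing factors across the exon, called exon definition, or its introns can be recognised as units, called intron definition. Short introns are generally paired across the intron, and exons between long introns across the exon, so that an exon with a short intron on 1 side and a long one on the other can take part in both. The splice sites that matter to such an exon are the acceptor at its start, with a polypyrimidine tract in front of the AG, and the donor at its end, which base pairs with U1 snRNA.

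To show what these exons look like, the splice sites are printed first for 4 called exons in each direction. Called exons whose libraries averaged 50 or more reads were ranked by the size of the change, 1 per gene, and the leading ones were taken, except that the exon of RBIS, next after ARHGEF1 among the falls, is not printed. Exons with fewer reads, such as that of ADA, can have larger changes. They come from the GRCh38 genome, 5′ to 3′ on the strand of the gene, with the last 20 intron bases and the first 3 exon bases of the acceptor, then the last 3 exon bases and the first 6 intron bases of the donor. Capitals mark exon bases. The exons called higher in siSFSWAP, from TMEM63A to SURF2, come before those called lower.
TMEM63A (chr1:225862771-225862851, - strand), acceptor: ccttctctccctggccacagGGA and donor: GAAgtgagt
ERCC1 (chr19:45413963-45414034, - strand), acceptor: cctgcctccaccctttccagGTG and donor: GGAgtaagg
GTF2IRD1 (chr7:74555393-74555494, + strand), acceptor: gatgccatcttgggtcccagGAA and donor: AAGgtaagg
SURF2 (chr9:133359840-133360129, + strand), acceptor: ctgctctggtttttgtccagGGC and donor: CACgtaagc
ARHGEF1 (chr19:41892025-41892123, + strand), acceptor: atgctgtgtgtctcccccagCTT and donor: GCGgtgaga
SNX15 (chr11:65032168-65032271, + strand), acceptor: ctcttgcctttctttctcagTTC and donor: CTGgtaact
BAZ1A (chr14:34786126-34786212, - strand), acceptor: tttccttaaagatttaacagAGG and donor: AGGgtatgt
PAXBP1 (chr21:32750917-32751020, - strand), acceptor: ttatttaggactcgtcgtagACA and donor: AAGgttaga
In the 18 intron bases before the AG, the share of C and T was 83.3% in TMEM63A, 88.9% in ERCC1, 61.1% in GTF2IRD1 and 77.8% in SURF2. It was 72.2% in ARHGEF1, 94.4% in SNX15, 61.1% in BAZ1A and 61.1% in PAXBP1. Both directions thus held exons with many and with few pyrimidines.

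The base composition around the exons can be read from 5 of them with the whole short intron. These were the exons with the largest changes under the same rule, at most 3 in each direction, that were coding in the canonical GENCODE 44 transcript and had no more than 300 bases together with the intron. The exon is in capitals and the short intron, on the 3′ side in all 5, in lower case. TMEM63A, ERCC1 and UNC119 were called higher in siSFSWAP, and POMT1 and KIF21A lower.
TMEM63A (chr1:225862579-225862851, - strand): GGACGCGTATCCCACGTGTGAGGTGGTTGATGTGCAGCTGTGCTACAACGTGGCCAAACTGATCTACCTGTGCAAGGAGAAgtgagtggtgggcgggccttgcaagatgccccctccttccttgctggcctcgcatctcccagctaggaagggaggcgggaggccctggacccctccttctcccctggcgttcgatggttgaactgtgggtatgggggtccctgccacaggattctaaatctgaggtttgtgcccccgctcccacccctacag
ERCC1 (chr19:45413746-45414034, - strand): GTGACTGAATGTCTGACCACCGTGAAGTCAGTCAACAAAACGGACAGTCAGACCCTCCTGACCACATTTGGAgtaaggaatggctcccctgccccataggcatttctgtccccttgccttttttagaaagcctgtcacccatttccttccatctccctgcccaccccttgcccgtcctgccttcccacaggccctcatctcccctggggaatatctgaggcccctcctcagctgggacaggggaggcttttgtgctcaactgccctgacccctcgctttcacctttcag
UNC119 (chr17:28547850-28548101, - strand): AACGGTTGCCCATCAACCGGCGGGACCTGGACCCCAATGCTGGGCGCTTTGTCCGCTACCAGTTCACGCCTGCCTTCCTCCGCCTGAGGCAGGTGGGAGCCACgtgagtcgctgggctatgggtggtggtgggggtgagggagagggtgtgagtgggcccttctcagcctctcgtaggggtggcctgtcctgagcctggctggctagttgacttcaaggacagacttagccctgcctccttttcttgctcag
POMT1 (chr9:131506114-131506402, + strand): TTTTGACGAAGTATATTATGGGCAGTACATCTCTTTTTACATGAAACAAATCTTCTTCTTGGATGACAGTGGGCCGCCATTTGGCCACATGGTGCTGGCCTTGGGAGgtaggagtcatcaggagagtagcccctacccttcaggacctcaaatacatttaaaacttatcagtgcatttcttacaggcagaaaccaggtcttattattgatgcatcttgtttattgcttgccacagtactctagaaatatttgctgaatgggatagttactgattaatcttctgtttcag
KIF21A (chr12:39333108-39333280, - strand): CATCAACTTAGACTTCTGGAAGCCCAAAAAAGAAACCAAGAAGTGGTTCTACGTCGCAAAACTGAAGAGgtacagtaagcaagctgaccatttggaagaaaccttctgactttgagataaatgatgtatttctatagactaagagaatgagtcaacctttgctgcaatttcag
The short intron held 63.5% G and C in TMEM63A, 58.5% in ERCC1 and 61.1% in UNC119. The same share was 38.5% in POMT1 and 36.5% in KIF21A. The introns of the exons called higher were therefore the richer ones in G and C among these 5. This did not hold for every exon whose splice sites are printed above. Among those called lower, the short intron held 62.3% in ARHGEF1 and 64.2% in SNX15, against 22.6% in BAZ1A and 41.8% in PAXBP1. It held 68.0% in GTF2IRD1 and 57.0% in SURF2, both called higher.

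The groups were checked on the targeted gene first. SFSWAP had 79.8, 86.7 and 80.3 spliced junction reads in CPM in siNT and 34.7, 34.7 and 21.4 in siSFSWAP, so that 36.8% of the siNT mean was left and the groups did not overlap. The skipped exon table held between 19515010 and 55274283 junction reads per library, the most in siNT library a. This library stood apart from the other two of its group at these exons. The median inclusion over the 2437 exons was 85.9, 80.3 and 79.5% in siNT and 87.3, 84.9 and 83.8% in siSFSWAP, and siNT library a lay above siSFSWAP libraries b and c. Counts of calls are therefore given with and without it. Inclusion is the share of the inclusion form in the inclusion and skipping forms together, from junction reads divided by the effective length of each form. It leaves out other forms of the exon, so overlapping forms that share skipping reads can each have a high inclusion. All changes are siSFSWAP minus siNT in percentage points.

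Of the 2437 exons, 42 were called higher and 28 lower in siSFSWAP, which took a mean change of at least 20 points with an adjusted p no higher than 0.05. The adjusted p is from a two-sided quasi-binomial F test with Benjamini-Hochberg adjustment over all tested exon events, here and below. Among all 43287 tested exons 1.31% were called higher and 0.698% lower, beside 1.72 and 1.15% of the exons with 1 short and 1 long intron. Some called exons are overlapping forms of 1 exon that share reads, so the 42 stand for 37 separate loci and the 28 for 19. The calls higher lay in 37 genes, among them TMEM63A, ERCC1, EIF3K and MRPS18A, and the calls lower in 19, among them TIAL1, CKAP2 and RBIS. Without siNT library a the counts were 84 higher and 27 lower, beside 2.80 and 0.689% of all exons, and 40 of the 42 and 22 of the 28 were called again. Leaving out any other library lowered both counts, to 9 higher and 11 lower without siNT library b, 11 and 13 without siNT library c, and 10 and 21, 16 and 11, and 15 and 10 without siSFSWAP libraries a, b and c. Over these 6 fits 7 of the exons called higher and 4 of those called lower were called each time.

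Most of the calls lower were in exons with the short intron on the 3′ side. With the short intron on the 5′ side 18 exons were called higher and 5 lower, and with it on the 3′ side 24 were called higher and 23 lower. By loci these were 16 and 5, and 21 and 14. Without siNT library a the counts were 44 and 6 on the 5′ side and 40 and 21 on the 3′ side. The difference between the sides was not tested, since exons are not replicates of a condition.

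**Figure D1:**
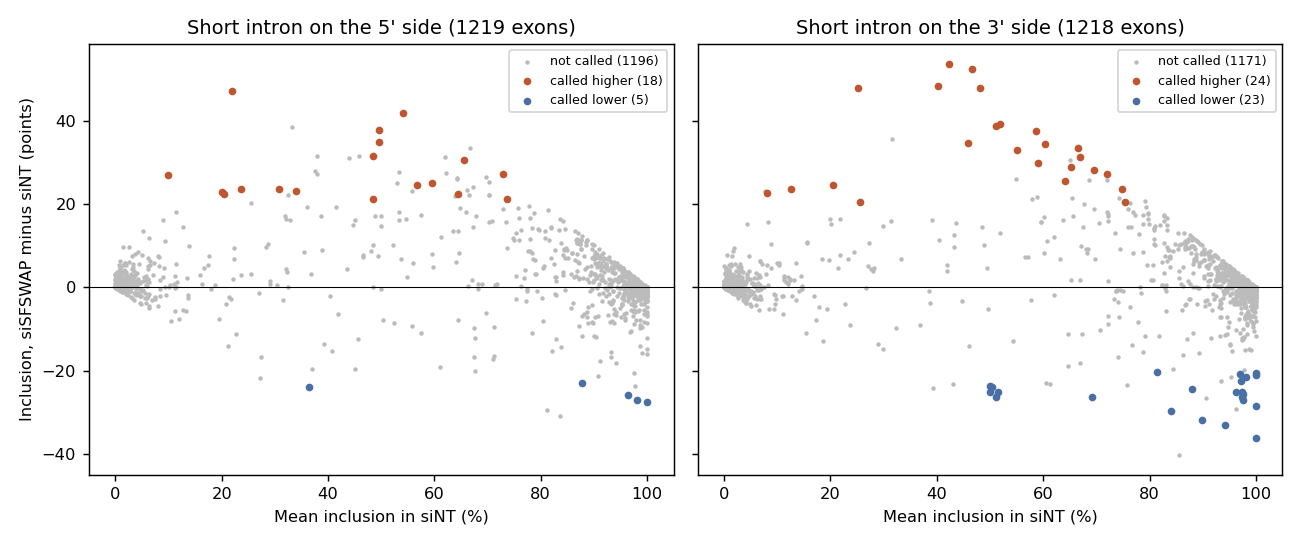
Change in inclusion (siSFSWAP minus siNT, percentage points) of each exon against its mean inclusion in siNT (%), with exons whose short intron is on the 5′ side on the left and on the 3′ side on the right. Orange points were called higher, 18 on the left and 24 on the right, and blue points lower, 5 on the left and 23 on the right, most of the latter at a high inclusion in siNT.

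Most exons lay near an end of the inclusion scale in siNT. In siNT 707 exons were included at under 5% and 798 above 95%, and 322 had a mean between 20 and 80%. Of the 28 exons called lower 15 started above 95%. The 936 exons of canonical transcripts had a median inclusion of 96% in siNT, and the 1010 exons whose exact coordinates are not in GENCODE 44 one of 6.1%. By that annotation 999 exons were coding, 196 partly coding, 126 in a UTR and 106 in a noncoding transcript. Over all 2437 exons the median change was 0.42 points, beside 0.24 over all tested exons. Over the 322 exons between 20 and 80% it was 9.74 points, with quartiles of -0.85 and 19.1, and 72.7% of them had a higher mean in siSFSWAP. By library their median inclusion was 65.0, 57.9 and 54.1% in siNT and 69.4, 69.6 and 71.2% in siSFSWAP, so the groups did not overlap and library a of siNT was again the nearest to siSFSWAP. Where the range was set by the mean of the 6 libraries instead of siNT, the median change was 6.72 points over 280 exons.

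Exons of the same lengths between introns of other kinds are the closest comparison. Between 20 and 80% in siNT, the median change was 18.5 points over 374 exons with a short intron on both sides, 9.74 with 1 short and 1 long intron, and 1.73 over 1082 exons with a long intron on both sides. With the range set by all 6 libraries the medians were 18.5, 6.72 and 0.24 points. Of the 1844 exons between short introns 107 were called higher and 11 lower, and of the 10268 between long introns 21 and 29. The exons with 1 short intron thus lay between the others in the median and in the share called higher, which was 5.80% between short introns, 1.72% with 1 short and 1 long intron and 0.205% between long introns. Their share called lower was the highest of these sets, at 1.15% beside 0.597% between short and 0.282% between long introns. That share counts overlapping forms. The 28 calls lower stand for 19 loci, and 11 were left with 1 exon per locus (the form of most reads). The other sets were not reduced to loci, so this order was not checked by locus. By the side of the short intron the median was 9.99 points over 170 exons on the 5′ side and 9.48 over 152 on the 3′ side, and with the range set by all 6 libraries 7.51 over 146 and 4.94 over 134. The sets also differed in their content of G and C. In the shorter intron its median was 60.5% between short introns, 48.9% with 1 short and 1 long intron and 41.6% between long introns. What part this has in the order of the sets was not tested, and none of the differences between sets was tested.

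**Figure D2:**
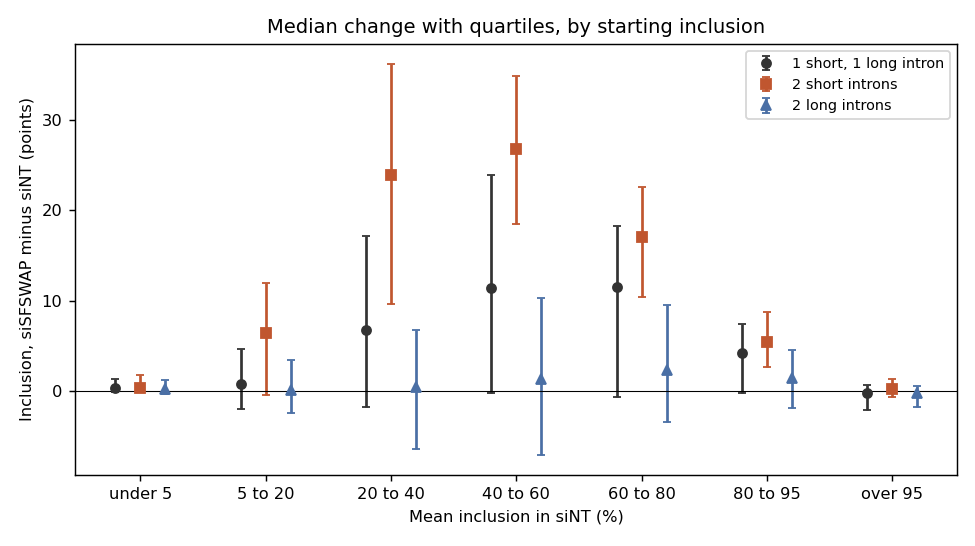
Median change in inclusion (siSFSWAP minus siNT, percentage points) by mean inclusion in siNT (%), for exons with 1 short and 1 long intron (circles), 2 short introns (squares) and 2 long introns (triangles), with bars from the lower to the upper quartile of the exons. Between 40 and 60% the medians were 11.4, 26.8 and 1.3 points.

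The limits of the length rule did not mark a step in the values. In the range of 20 to 80%, exons with a short intron above 200 nt had a median change of 8.09 points (n = 110), and exons just outside the rule, with more than 300 and up to 400 nt, one of 6.53 (n = 88). For long introns up to 3000 nt the median was 15.6 points (n = 122), and just outside, above 1000 and up to 2000 nt, 14.9 (n = 244). Farther inside, it was 8.14 points for long introns above 3000 and up to 6000 nt (n = 107) and 4.39 above 6000 nt (n = 93). For the shortest introns, up to 100 nt, it was 13.6 points (n = 73).

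Among the exons called higher, those with at least 50 reads per library and the largest changes came from genes of varied roles. TMEM63A codes for a mechanosensitive ion channel of membranes. Its exon 11 of 25 (81 nt, chr1:225862771-225862851, GRCh38, coding) had an inclusion of 65, 48.1 and 26.8% in siNT and 100, 97.5 and 100% in siSFSWAP. The groups were far apart, with siNT spread widely and siSFSWAP near full inclusion. The mean rose from 46.7 ± 19.1 to 99.2% ± 1.46 (SD, n = 3 each) by 52.5 points (adjusted p = 0.000113), and the call was kept in all 6 fits without 1 library. ERCC1 is a subunit of the nuclease that cuts damaged strands in nucleotide excision repair. Its exon 8 of 10 (72 nt, chr19:45413963-45414034, coding) was included at 70.4, 31.6 and 53.7% in siNT and 89.7, 87 and 96.9% in siSFSWAP. All siSFSWAP libraries were higher, and the change was 39.3 points (adjusted p = 0.00744), but siNT library b had only 12 inclusion and 15 skipping reads and the call was kept in just 1 of the 6 fits, the one without siNT library a. In GTF2IRD1, a transcription factor gene of the Williams syndrome region, an exon of 102 nt (chr7:74555393-74555494, coding, not in the canonical transcript) was at 54.5, 52.2 and 42.1% in siNT and 84.6, 79.6 and 89.5% in siSFSWAP. The change of 34.9 points (adjusted p = 0.00127) was kept in all 6 fits.

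SURF2, a gene of the surfeit cluster, had 2 called forms of an exon, with 662.7 and 355.2 reads per library. Its exon 4 of 6 (180 nt, chr9:133359950-133360129) was included at 73.7, 62.5 and 56.4% in siNT and 89.5, 87.8 and 92% in siSFSWAP, with a change of 25.6 points (adjusted p = 2.66e-05). A longer form of the same exon, with an acceptor upstream and 290 nt, was at 54.5, 45.5 and 37.4% in siNT and 80.3, 77.6 and 83.8% in siSFSWAP, with a change of 34.8 points (adjusted p = 5.11e-06). The forms share the donor and the skipping reads, and both calls were kept in all 6 fits. EIF3K, a subunit of the translation initiation factor eIF3, had 1026.3 reads per library at its exon 6 of 8 (78 nt, chr19:38632601-38632678). Its inclusion was 69, 49.6 and 51.5% in siNT and 81.7, 81 and 81.2% in siSFSWAP. The siSFSWAP libraries lay within 1 point of each other and above all of siNT, and the change was 24.6 points (adjusted p = 0.000243). Without siSFSWAP library a the adjusted p was 0.0533.

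The next 5 exons were named because they were called higher, so their shared direction follows from the choice. DYNC2I2, an intermediate chain of the dynein of cilia, had an exon of 150 nt at 87.7, 66.3 and 62.2% in siNT and 99, 98.5 and 100% in siSFSWAP, with a change of 27.1 points (adjusted p = 0.000464) kept in all 6 fits. PLD3, a lysosomal exonuclease, had exon 5 of 13 at 89, 73.1 and 56.4% in siNT and 100, 100 and 100% in siSFSWAP. No skipping read was left in any siSFSWAP library at PLD3, against 6, 7 and 12 in siNT, and the change was 27.2 points (adjusted p = 0.00405). CLN3 codes for a lysosomal membrane protein, and an exon of 111 nt there was at 70.8, 60 and 48% in siNT and 86.1, 86.7 and 80.8% in siSFSWAP, with a change of 24.9 points (adjusted p = 0.0344). UNC119, a chaperone of lipidated proteins, had exon 3 of 5 at 83, 62.7 and 55.1% in siNT and 95, 100 and 100% in siSFSWAP. Its groups did not overlap, and the change was 31.4 points (adjusted p = 0.00607). For ZDHHC3, a palmitoyl transferase, an exon of 84 nt started low at 19, 3.08 and 7.68% in siNT and 33.7, 35.1 and 41.5% in siSFSWAP and changed by 26.9 points (adjusted p = 0.012). Without 1 library, the calls in PLD3 and UNC119 were kept in 2 of the 6 fits and those in CLN3 and ZDHHC3 in 1, with adjusted p values up to 0.0872, 0.0938, 0.201 and 0.116.

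The exons of the following 4 genes were named for a call higher too. MTA1, a subunit of the NuRD deacetylase complex, had exon 16 of 21 at 81.3, 66.4 and 48.7% in siNT and 96.8, 95.5 and 95.5% in siSFSWAP. The siSFSWAP libraries lay close together and siNT was spread widely below them, and the change was 30.5 points (adjusted p = 0.00354). TNRC18 had exon 14 of 30 at 69.7, 45.3 and 30.2% in siNT and 78.5, 80 and 81.5% in siSFSWAP, a change of 31.6 points (adjusted p = 0.0483). AMDHD2, the deacetylase that turns N-acetylglucosamine 6-phosphate back towards glucosamine, had 2 called forms of 1 exon, and the one of 121 nt was at 83.9, 60 and 64.7% in siNT and 93.4, 100 and 100% in siSFSWAP, with a change of 28.3 points (adjusted p = 0.0338). The gene ENSG00000258674, for which no symbol was found, had exon 5 of 7 at 72, 46.8 and 61.9% in siNT and 94.1, 100 and 89.7% in siSFSWAP, with a change of 34.3 points (adjusted p = 0.00868). The calls in MTA1, TNRC18, AMDHD2 and ENSG00000258674 were kept in no more than 2 of the 6 fits, always including the fit without siNT library a.

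The largest rise of all was in a gene with fewer reads, and ADA, TRAPPC6A and PFKM were named after their values were seen. ADA, the adenosine deaminase of purine salvage, had exon 7 of 12 (72 nt, chr20:44623007-44623078) at 79.5, 31.1 and 16.2% in siNT and 91.7, 96.2 and 100% in siSFSWAP. Library a of siNT was close to the siSFSWAP values and the other siNT libraries far below, and the change of 53.7 points (adjusted p = 0.0183) became 72.4 points without that library. In the other 5 fits without 1 library the change was 40.7 to 55.9 points and the call was lost, at adjusted p values of 0.14 to 0.194. TRAPPC6A, a subunit of the TRAPP vesicle tethering complex, had exon 2 of 6 (68 nt) at 44.6, 49.7 and 26.2% in siNT and 92.2, 80.6 and 92.4% in siSFSWAP. Its change of 48.2 points (adjusted p = 0.00108) was kept in all 6 fits, although siNT libraries b and c had only 5 and 3 inclusion reads. PFKM, the muscle form of phosphofructokinase, had exon 10 of 23 (93 nt) with a short intron on the 5′ side at 27.9, 37.4 and 27.2% in siNT and 50.4, 51.7 and 61% in siSFSWAP, and its change of 23.6 points (adjusted p = 0.000601) was also kept in all 6.

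**Figure D3:**
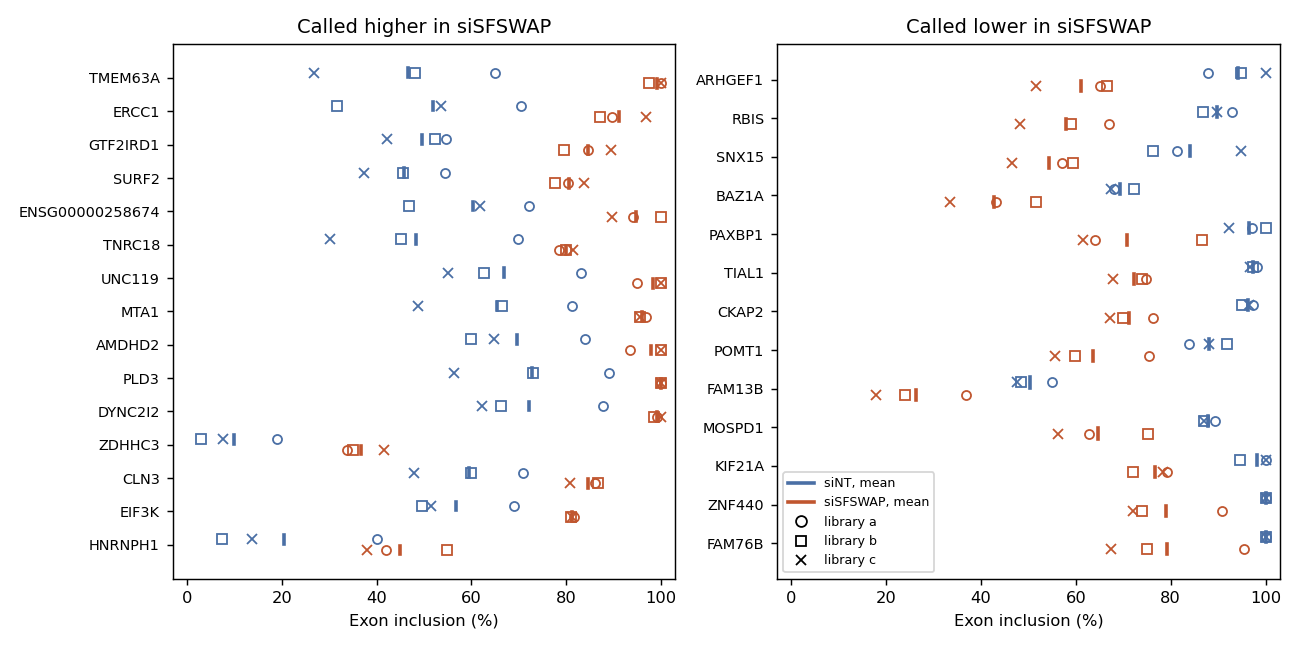
Inclusion (%) in each library of the exons named by rule, with 15 called higher on the left and 13 called lower on the right, in order of the size of the change. Blue symbols are siNT and orange siSFSWAP, circles, squares and crosses are libraries a, b and c, and the bars are group means. On the left siNT library a is the siNT value nearest to siSFSWAP in every row.

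The exons called lower with the most reads were those of TIAL1, CKAP2 and RBIS. TIAL1 codes for TIAR, a protein that binds U-rich RNA and acts in splicing and stress granules. Its exon 3 of 12 in the canonical form (99 nt, chr10:119582459-119582557) was at 98.2, 97.1 and 96.1% in siNT and 78.3, 74.2 and 71.5% in siSFSWAP. A longer form of the exon, of 150 nt and with the same donor, was at 98.1, 97.4 and 96.8% in siNT and 74.7, 74 and 67.9% in siSFSWAP. In both forms every siSFSWAP library was lower than every siNT library, with changes of -22.5 points (adjusted p = 4.7e-07) and -25.2 points (adjusted p = 1.42e-07), and both calls were kept in all 6 fits. CKAP2, a protein of spindle microtubules, had a form of 73 nt (chr13:52460902-52460974) at 97.4, 95 and 96.4% in siNT and 76.2, 69.9 and 67.2% in siSFSWAP. Its change was -25.1 points (adjusted p = 1.42e-07), kept in all 6 fits, and an overlapping form of 79 nt changed by -20.9 points (adjusted p = 2.5e-07). RBIS, a factor of ribosome assembly, was the deepest, with 875.2 reads per library. Its exon 3 of 4 (117 nt) was at 92.9, 86.9 and 89.7% in siNT and 67.1, 58.9 and 48.1% in siSFSWAP. The change of -31.8 points (adjusted p = 6.08e-08) was kept in all 6 fits.

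Further exons fell from a high inclusion. ARHGEF1, an exchange factor that activates RhoA, had exon 5 of 29 (99 nt, chr19:41892025-41892123) at 87.9, 94.7 and 100% in siNT and 65.1, 66.7 and 51.6% in siSFSWAP, a change of -33.1 points (adjusted p = 0.00521). POMT1, a mannosyl transferase of the endoplasmic reticulum, had exon 3 of 20 at 83.9, 91.9 and 88.1% in siNT and 75.5, 59.7 and 55.6% in siSFSWAP, a change of -24.4 points (adjusted p = 0.00724). KIF21A, a kinesin, had exon 18 of 38 at 100, 94.6 and 100% in siNT and 79.3, 72 and 78.4% in siSFSWAP. Its groups did not overlap, and the change of -21.6 points (adjusted p = 0.00483) was kept in 5 of 6 fits. ZNF440, a zinc finger gene, had exon 2 of 4 at 100, 100 and 100% in siNT and 90.9, 73.9 and 72% in siSFSWAP, without a skipping read in siNT and with a change of -21.1 points (adjusted p = 0.00848), and 2 further forms of the exon were called. FAM76B likewise had no skipping read in siNT, with an inclusion of 100, 100 and 100% in siNT and 95.5, 75 and 67.4% in siSFSWAP and a change of -20.7 points (adjusted p = 0.001). The calls in ARHGEF1 and FAM76B were kept in 4 of the 6 fits, and those in POMT1 and in this form of ZNF440 in 2.

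Not all falls began near 100%, though among those that follow the one in PAXBP1 did. BAZ1A, a subunit of the ACF chromatin remodeller, had a form of 87 nt at 68, 72.2 and 67.4% in siNT and 43.2, 51.6 and 33.6% in siSFSWAP, a change of -26.5 points (adjusted p = 0.0221) that was kept in only 1 of the 6 fits. FAM13B had exon 19 of 24 at 54.9, 48.5 and 47.6% in siNT and 36.9, 23.9 and 18% in siSFSWAP. Its siSFSWAP libraries were all lower, and the change was -24.1 points (adjusted p = 0.00728). SNX15, a sorting nexin, had an exon of 104 nt at 81.3, 76.2 and 94.9% in siNT and 57.1, 59.4 and 46.5% in siSFSWAP, a change of -29.8 points (adjusted p = 0.0143) kept in 1 of 6 fits. PAXBP1 had an exon of 104 nt at 97.2, 100 and 92.3% in siNT and 64, 86.7 and 61.5% in siSFSWAP and MOSPD1 one of 97 nt at 89.4, 87 and 87% in siNT and 62.7, 75.2 and 56.2% in siSFSWAP. These changed by -25.8 points (adjusted p = 0.0024) and -23.1 points (adjusted p = 0.014), and both have the short intron on the 5′ side. The other 11 exons called lower and named for a large change at 50 or more reads have it on the 3′ side. The exon of SRSF10, called lower and named below as a splicing regulator, also has it on the 5′ side. In SLC25A16, a mitochondrial carrier, 4 overlapping forms were called lower on nearly the same reads, and the form of 182 nt was at 48.2, 52.2 and 52.9% in siNT and 16.8, 25.9 and 31.4% in siSFSWAP. The calls in PAXBP1 and in this form of SLC25A16 were kept in 4 of the 6 fits, that in FAM13B in 3 and that in MOSPD1 in 2.

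Splicing regulators held calls in both directions. Of their 47 exons with 1 short and 1 long intron, in 21 genes, 1 was called higher and 3 lower, and the median change was -0.24 points, beside 5 higher and 19 lower of 816 exons of these genes overall. HNRNPH1, which binds runs of G, had exon 6 of 14 (179 nt, chr5:179618145-179618323) at 40, 7.5 and 13.8% in siNT and 41.9, 54.8 and 38% in siSFSWAP. The groups overlapped through siNT library a, and the change of 24.5 points (adjusted p = 0.0211) became 34.3 points without it. The call was lost in the other 5 fits without 1 library, where the change was 18.02 to 27.95 points and the adjusted p 0.145 to 0.21. SRSF10, an SR-like protein, had an exon of 283 nt (not in GENCODE 44) at 31.5, 27.7 and 50% in siNT and 12.7, 12 and 12.7% in siSFSWAP. That change was -23.9 points (adjusted p = 0.034), on a mean of 31 reads per library and kept in 1 of 6 fits. The other calls were the forms of TIAL1. Of 32 exons of spliceosome components 0 were called by the quasi-binomial test or by limma, and 5 were higher and 10 lower at an unadjusted p under 0.05.

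The remaining lists held few calls, which are given beside those over all tested exons of the same genes. Among 37 exons of DNA repair genes 1 was called higher, in ERCC1, and the median change was 2.07 points, beside 11 higher and 9 lower of 615. Among 62 exons of vesicle traffic genes 1 was called higher, in TRAPPC6A, and 1 lower, in SNX15, beside 15 and 3 of 1076. For 56 exons of centrosome and motor genes these were DYNC2I2 and KIF21A, beside 10 and 7 of 888. Of 40 exons of genes with a solute carrier symbol 1 was called higher, in SLC9A3R2, an adaptor protein, and the 4 overlapping forms in SLC25A16 lower, while 19 were higher and 5 lower of 573. Of 58 exons of zinc finger genes the 3 overlapping forms in ZNF440 were called lower, while 16 were higher and 4 lower of 837. In the MAP kinase cascade 2 of 10 exons were called lower, beside 2 higher and 5 lower of 205, and these are overlapping forms of 1 exon of MAPK8IP3. Among 18 exons of mitochondrial ribosomal proteins 1 was called higher, in MRPS18A, beside 4 and 6 of 235. There were 0 calls by the quasi-binomial test or by limma among 62 exons of ubiquitin enzymes, 26 of chromatin enzymes, 30 of cytosolic ribosomal proteins, 13 of cyclins and their kinases and 7 of aminoacyl-tRNA synthetases. Over all tested exons of these genes 3 were higher and 8 lower of 1130, 4 and 7 of 756, 4 and 1 of 608, 8 and 1 of 250 and 0 and 2 of 228, and 1 and 3 of 541 for spliceosome components. The chromatin list does not hold BAZ1A or MTA1. With the spliceosome components these 6 lists held 170 exons, of which 22 were higher and 21 lower at an unadjusted p under 0.05.

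The exons with the most reads barely moved. RPS18, a protein of the small ribosomal subunit, had exon 3 of 6 (87 nt) at a mean of 31014.3 reads per library, and its inclusion was 99.99, 99.95 and 99.98% in siNT and 100, 99.98 and 99.98% in siSFSWAP. RPL23, of the large subunit, had exon 4 of 5 (114 nt) at 13493.3 reads and 99.98, 99.9 and 99.96% in siNT and 99.91, 99.96 and 99.82% in siSFSWAP. The groups overlapped in both, with changes of 0.01 points (adjusted p = 0.708) and -0.05 points (adjusted p = 0.373). The other 3 of the 5 deepest exons were in these genes too and changed by -0.07 to 0.03 points. An RPS18 exon of 158 nt among them was a separate exon, almost always skipped, with a mean inclusion of 0.02% in siNT. All 5 thus lay at an end of the inclusion scale.

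The called exons differed in composition from the other exons with 1 short and 1 long intron. The median GC content of the short intron was 61.9% for exons called higher, 35.0% for those called lower and 48.9% over all 2437. For the exon itself it was 61.9, 41.7 and 51.8%, and for the long intron 53.6, 41.6 and 45.2%. With 1 exon per locus the short intron had 61.9% in 37 loci called higher and 34.9% in 19 called lower. A call higher was possible only from at most 80% inclusion in siNT and a call lower only from at least 20%, and uncalled exons in these ranges had a median GC of the short intron of 45.9 and 53.1%. The called exons thus lay on either side of these uncalled exons. The uncalled exons of at most 80% were mostly skipped, with a median inclusion of 2.5% in siNT, against 50.4% for exons called higher. They were therefore not matched to the exons called higher in starting inclusion. For the uncalled exons of at least 20% the median was 95.3%, beside 96.4% for exons called lower.

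The same order was seen when exons were grouped by GC content instead of by call, with the called exons still among them. Among the 322 exons between 20 and 80% in siNT, the median change was -3.06 points where the short intron had under 40% GC (n = 64), 4.67 at 40 to 50% (n = 54), 13.6 at 50 to 60% (n = 77) and 18 at 60% or more (n = 127). With the short intron on the 3′ side the medians ran from -9.09 (n = 37) to 18.9 (n = 53), and on the 5′ side from 0.88 (n = 27) to 16.8 (n = 74). Spearman's rho between the GC of the short intron and the change was 0.56 over the 322 exons, 0.70 with the short intron on the 3′ side (n = 152) and 0.42 on the 5′ side (n = 170). Pearson's r was 0.54, 0.65 and 0.42. Over all tested exons in the range rho was 0.49 with the shorter intron, and it was 0.12 between short introns and 0.21 between long introns. These are descriptions across exons, which share libraries and depth and are not independent.

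The GC of the exon and of the long intron went the same way, with a rho of 0.49 and 0.48 over the 322 exons, while the length of the short intron had one of -0.12 and that of the long intron one of -0.30. The difference between libraries of 1 group moved with the same property. Inclusion in siNT library a minus the mean of siNT libraries b and c had a rho of 0.44 with the GC of the short intron, and for siSFSWAP library a minus its other libraries it was 0.15. Without siNT library a the rho of the change was 0.57. What part the difference between siNT libraries has in the result was not tested.

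**Figure D4:**
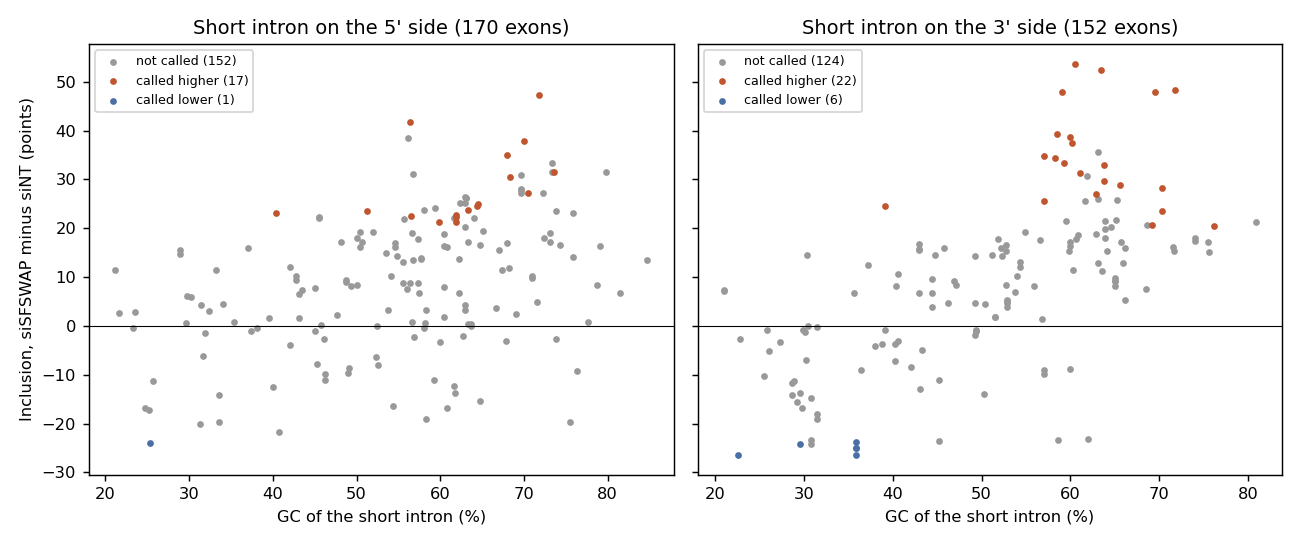
Change in inclusion (siSFSWAP minus siNT, percentage points) against the GC content of the short intron (%) for the 322 exons with 20 to 80% inclusion in siNT, with the short intron on the 5′ side on the left and on the 3′ side on the right. Orange points were called higher and blue lower. On the right the exons under 40% GC lie mostly below 0, with a median of -9.09 points, and those at 60% or more mostly above, with a median of 18.9.

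Splice site strength was scored as the summed log2 odds of each base over all tested exons. The median donor score was 8.01 for exons called higher, 7.65 for those called lower and 7.53 over all 2437, and the median acceptor score 7.12, 7.36 and 7.43. With 1 exon per locus the donor scores were 8.08 and 7.90 and the acceptor scores 7.37 and 8.95. The acceptor score of the exons called lower was thus below that of all 2437 exons with every form counted and above it with 1 exon per locus. The exon length was a multiple of 3 in 22 of 42 exons called higher (52.4%), 12 of 28 called lower (42.9%) and 39.2% of all 2437. With 1 exon per locus it was so in 22 of 37 called higher (59.5%) and 7 of 19 called lower (36.8%).

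The short intron could be followed in the retained intron table, which counts unspliced against spliced reads of an intron. The table listed the short intron of 1117 exons, and that of 649 exons, 421 different introns, could be tested. In siSFSWAP 3 of the 421 were called lower and 0 higher in retention by the same kind of test, which is 0.713%, beside 1.61% lower and 0.148% higher of all 10155 tested introns. Of the 7542 tested introns of at most 300 nt, 138 were called lower (1.83%). Between 20 and 80% retention in siNT, the median change was -9.47 points over 70 of the 421 and -11.04 over 1316 of the 7542. By the adjusted p alone 10 of the 421 were lower and 1 higher, at an unadjusted p under 0.05 46 and 11, and limma on the log2 odds called 0 in either direction. The reads that splice the short intron are part of the inclusion reads of the exon, so the measures are not independent.

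MRPS18A, a protein of the mitochondrial ribosome, was the one gene where an exon and its own short intron were both called. Other introns of these genes were not looked up. The intron of 222 nt before its exon 5 of 6 was retained at 22.9, 37.6 and 40.9% in siNT and 5.33, 10.6 and 9.66% in siSFSWAP, with a change of -25.2 points (adjusted p = 0.00194). The exon (70 nt, chr6:43675202-43675271) was included at 82.5, 69 and 69.4% in siNT and 96.6, 92.9 and 95.1% in siSFSWAP, with a change of 21.2 points (adjusted p = 0.000207). Both groups were apart in both measures, with less of the intron and more of the exon in siSFSWAP. P3H4, part of a complex that modifies collagen, had a short intron of 97 nt retained at 25.4, 41 and 56.5% in siNT and 11.1, 5.94 and 5.13% in siSFSWAP, a change of -33.6 points (adjusted p = 0.0105). Its exon was not called, at 15.6 points (adjusted p = 0.355). MKNK2, a kinase of the initiation factor eIF4E, had an intron of 135 nt retained at 39.4, 55.9 and 63.6% in siNT and 25.9, 28 and 35% in siSFSWAP, a change of -23.4 points (adjusted p = 0.0331). Its exon was at 93.1, 82.1 and 86% in siNT and 98.2, 97 and 94.2% in siSFSWAP and not called, with 9.43 points (adjusted p = 0.102). The introns of MKNK2 and P3H4 were called in no more than 2 of 6 fits without 1 library, and that of MRPS18A in 5, while the exon of MRPS18A was called in 4.

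Beside the called exons, retention of the short intron moved the other way from inclusion in most cases. The spliced reads of the short intron are also inclusion reads of the exon, so this direction is partly built in. Of 11 short introns tested next to exons called higher, 10 had a lower mean retention in siSFSWAP, with a median change of -4.15 points. Of 9 next to exons called lower, 8 had a higher mean retention, with a median of 4.87 points. Apart from MRPS18A none of these introns was called. A fall was common among the tested short introns with or without a called exon. Of the 70 with a retention of 20 to 80% in siNT, 59 had a lower mean in siSFSWAP. In RBIS the short intron was retained at 5.21, 5.67 and 4.84% in siNT and 11.2, 9.48 and 18% in siSFSWAP, and the groups did not overlap, with a change of 7.66 points (adjusted p = 0.0134), under the limit of 20 points. In SRSF10 it was retained at 87.2, 90.2 and 87.5% in siNT and 93.2, 93.3 and 100% in siSFSWAP, and in CKAP2 at 6.79, 7.11 and 7.04% in siNT and 10.6, 7.6 and 8.17% in siSFSWAP.

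**Figure D5:**
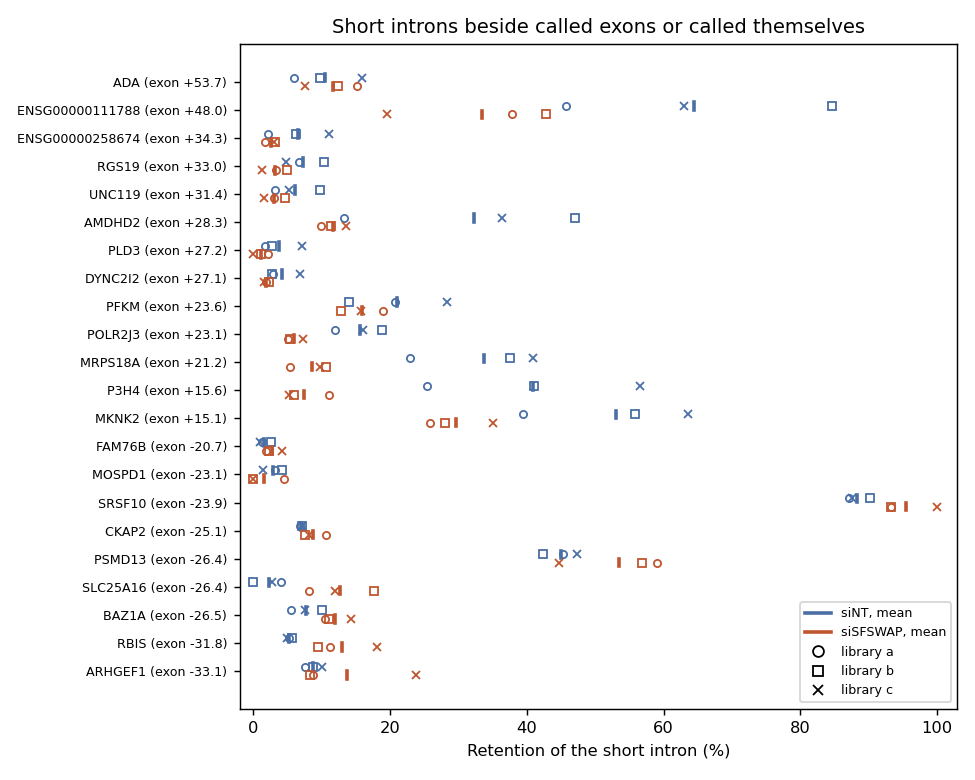
Retention (%) in each library of the short introns tested next to a called exon or called themselves, in order of the change of the exon, which is given in points beside the gene for the form with the largest change. Blue symbols are siNT and orange siSFSWAP, circles, squares and crosses are libraries a, b and c, and bars are group means. MRPS18A, P3H4 and MKNK2 lie clearly lower in siSFSWAP, while RBIS lies higher.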

How the data were processed

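Junction reads of exons with 1 short and 1 long intron were analysed in 3 siNT and 3 siSFSWAP libraries. The authors trimmed single-end reads with cutadapt 1.9.1, aligned them to GRCh38 with STAR 2.7 and GENCODE 40 and counted junctions with rMATS. The deposited tables hold other values than expression: unnormalised whole-number inclusion and skipping reads, 3 libraries to a cell, with effective lengths in nucleotides. Their columns of inclusion levels, p-values, FDR and differences between groups hold the authors' own comparison and were not used, except that the sign of the difference, siNT minus siSFSWAP in the paper, showed which numbered group is siNT. SFSWAP reads were a check of this.

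Inclusion was (I/lI)/(I/lI + S/lS), with the reads I and S of both forms divided by their effective lengths. Of 153168 exon events 48100, and 10155 introns, were kept for a mean of 20 or more reads over the libraries, 5 or more reads of each form in all and reads in at least 2 libraries of each group. These were tested with a quasi-binomial F test on both counts, with the dispersion moderated by squeezeVar of limma 3.58.1 (R 4.3.3), with a trend on log2 depth, and kept at 1 or more, and Benjamini-Hochberg adjustment over each table. A call needed a change of at least 0.2 and an adjusted p no higher than 0.05. The test was tried on simulated data. P values weigh the change against the spread between 3 biological replicates a group, moderated over all events as above. Libraries with more reads count for more in the test, while the printed change is between unweighted means of libraries. Junction reads carry no molecular identifiers.

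GC content, splice sites and annotation came from GRCh38 and GENCODE 44. Both introns had the dinucleotides GT and AG at their ends for 2343 of the 2437 exons (96.1%). Named exons were, among those with at least 50 reads per library, the 15 called higher and 15 called lower with the largest changes, 1 per gene (13 genes lower), any called exon of the splicing lists, those with a called short intron and the 5 with most reads. Others were named after their values were seen. The exons and the 14 gene lists were chosen with earlier results of these data known. Alternatives were another test, read minimum, threshold, inclusion formula and length limits, and leaving out each library.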

Additional observations from a re-analysis of the deposited data

How the results depend on the processing

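The direction of the median changes held under every alternative run: over the exons between 20 and 80% inclusion in siNT the median stayed between 7.11 and 12.8 points when 1 library was left out, and it was 4.12 points with long introns above 5000 nt. The counts of calls depended strongly on the settings. Exons called higher (42) numbered 12 by limma on the log2 odds, 26 by limma weighted by depth, 25 at a mean of at least 50 reads, 90 by the adjusted p alone, 95 with long introns above 1000 nt, 11 above 5000 nt, and 9 to 84 without 1 library. Exons called lower (28) numbered 10 by limma, 16 at 50 reads, 12 with counts not divided by length, 82 by the adjusted p alone, 14 and 43 with short introns of at most 200 and 500 nt, 11 above 5000 nt, 11 with 1 exon per locus (the form of most reads), and 10 to 27 without 1 library. With the short intron on the 5′ side, the calls higher (18) numbered 3 by limma, 39 by the adjusted p alone, 41 and 2 with long introns above 1000 and 5000 nt, and 4 to 44 without 1 library. The calls lower (5) numbered 1 by limma, 3 by weighted limma, 2 at 50 reads, 2 with counts not divided by length, 12 at a change of 0.1, 23 by the adjusted p alone, 8 with short introns of at most 500 nt, 11 and 0 with long introns above 1000 and 5000 nt, and 1 to 6 without 1 library. With the short intron on the 3′ side, the calls higher (24) numbered 9 by limma, 13 by weighted limma, 12 at 50 reads, 37 at a change of 0.1, 51 by the adjusted p alone, 54 and 9 with long introns above 1000 and 5000 nt, and 5 to 40 without 1 library. The calls lower (23) numbered 9 by limma, 14 at 50 reads, 10 with counts not divided by length, 59 by the adjusted p alone, 10 and 35 with short introns of at most 200 and 500 nt, 11 above 5000 nt, and 8 to 21 without 1 library. Short introns with a lower retention (3) numbered 0 by limma, 9 at a change of 0.1, 10 by the adjusted p alone, and 0 to 14 without 1 library, and those with a higher retention (0) 1 by the adjusted p alone and 0 without any 1 library. A longer or shorter length limit changes which exons are counted; for the other settings the cause was not tested.

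Of the 70 called exons, 46 were called by weighted limma, 40 without division by length and 22 by limma, none in the other direction. The weighted fit, the range set by 6 libraries and 1 exon per locus were chosen after seeing the data. The planned edgeR fit was not run. No paired analysis was possible because the lists carry no replicate numbers. Exons with few reads limit what could be called: the median was 103.8 reads per library.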
